A study of Mus musculus with 4 samples.

Results

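The 49 genes described here encode the machinery of DNA replication and of S phase. They were chosen by name, as genes that license and fire replication origins, copy DNA, supply nucleotides, drive entry into S phase or assemble chromatin. Earlier results of these data were known when they were chosen. Of the 49 genes, 47 had at least 1 probe set of their own on the array, 86 probe sets in all among 22626 that were not controls. Gins2 and Chaf1a had no probe set in the annotation used here. The 3 probe sets of Tyms, the thymidylate synthase gene, lay below the filter on dim signals, and 1 more that names Tyms beside another gene was not used for it. The remaining 46 genes were tested among 8923 features of the whole array. One feature stands for a gene, by its brightest probe set, or for a probe set without a single gene.

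RNA came from fibroblasts grown out of E10.0 mouse embryos, on 4 Affymetrix arrays. The Med1-/- p53-/- cells and the Med1+/+ p53-/- cells had 2 arrays each, and both genotypes lacked p53 and had the strain label C57BL/6J. Per the labels, both came from embryos of 1 crossing, of a Med1+/- p53-/- male with a Med1+/- p53+/- female. The Med1 protein belongs to Mediator, the complex through which transcription factors reach RNA polymerase II. The labels do not say if a genotype's arrays hold RNA of different embryos or cultures. The p-values therefore rest on array-to-array spread alone, which may be technical. Growth rate, passage and cell cycle profile are likewise not given, and any further difference between the embryos or cultures is confounded with genotype and cannot be told apart from it.

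A cell copies its genome once per division by separating loading from firing. In G1 the origin recognition complex, with Cdc6 and Cdt1, loads the ring of Mcm proteins onto DNA, and geminin later binds Cdt1 to prevent a second loading. Cyclin E with its kinase, and the Cdc7 kinase with Dbf4, then turn the rings into active helicases together with Cdc45 and the GINS complex. Primase with polymerase alpha starts each strand, the clamp Pcna and its loader replication factor C hold polymerases delta and epsilon on the template, and Fen1 and Lig1 join the finished pieces. Many of these genes are textbook targets of the E2F transcription factors, which are released when cyclin-dependent kinases act on the retinoblastoma proteins. Embryonic fibroblasts without p53 lack a main brake on this step.

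The replication genes did not move as 1 block between the genotypes, and neither did the whole array. In several complexes, neighbours differed in direction. Of the 46 tested, 17 were called higher in Med1-/- cells and 22 were called lower (limma, Benjamini-Hochberg adjusted p under 0.05 over all features), and 7 were not called. The shares, 37.0% higher and 47.8% lower, stand beside 39.1% and 36.2% of all features. Most features were thus called, in both directions, so calls both ways within a group are not particular to these genes. At least 2-fold, 6 were higher and 12 lower, which is 13.0% and 26.1% of the tested genes, beside 21.2% and 19.2% of all features. The log2 changes ran from -2.0 for Rfc1 to 1.88 for E2f1, with a median of -0.22 beside 0.09 for all features. The median size of a change, without its sign, was 0.83 on the log2 scale beside 0.84 for all features, whereas the replicates of these genes differed by a median of 0.12 in Med1-/- and 0.10 in Med1+/+ cells. Both arrays of a genotype lay beyond both of the other for 44 of the 46 genes, or 95.7%, beside 88.2% of all features. In bulk RNA, fewer cells in S phase and less transcript in each cell cannot be told apart.

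**Figure D1:**
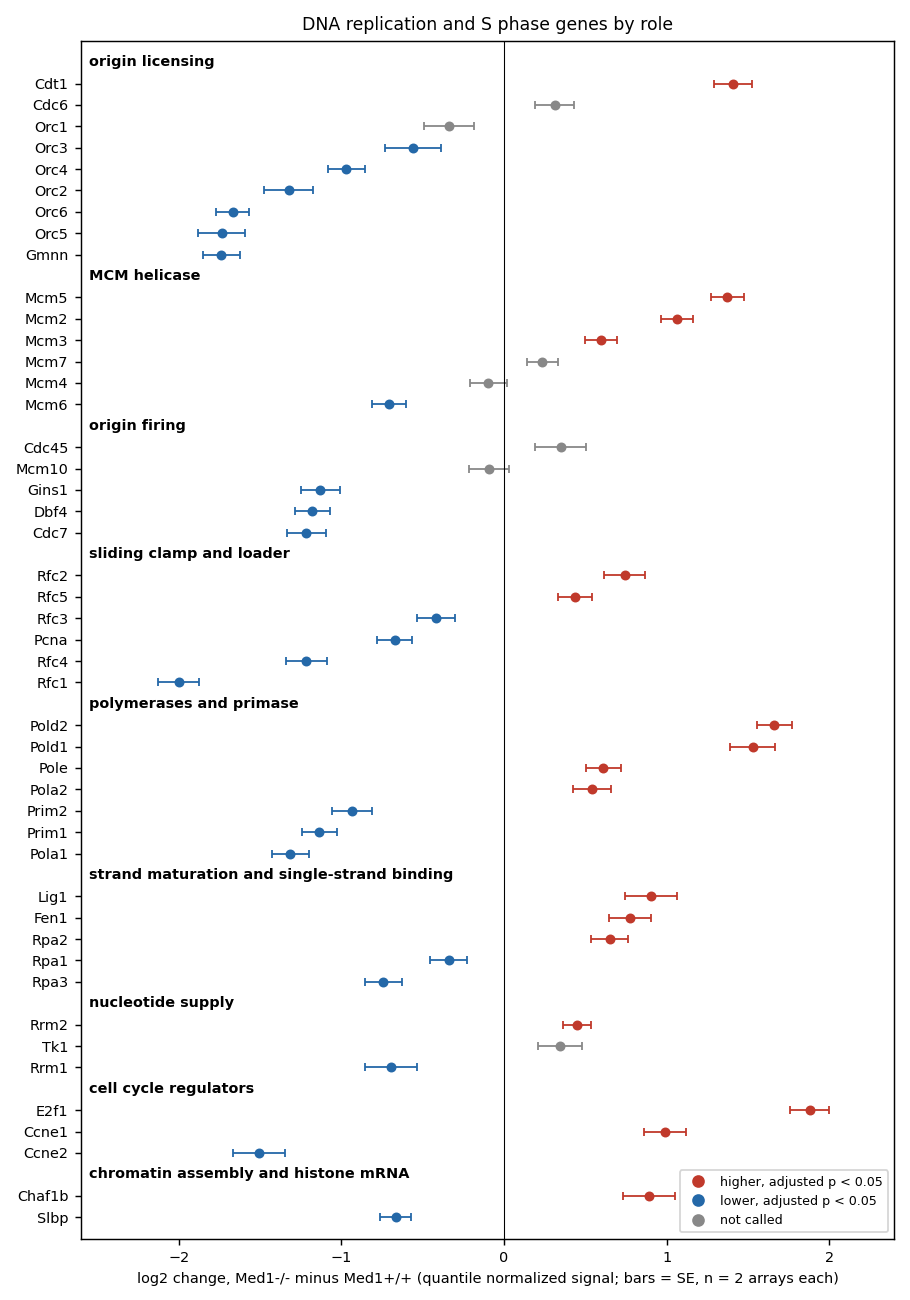
Log2 change of each tested replication gene, Med1-/- minus Med1+/+, with its standard error (n = 2 arrays per genotype), grouped by the role of the gene product. Red points were called higher and blue points lower at an adjusted p under 0.05, and grey points were not called: the origin recognition genes lie left of 0, and the helicase, clamp loader and polymerase genes lie on both sides.

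Each direction is relative to the rest of the transcripts measured, because the deposited arrays had no common scale. Array medians before scaling were 36.1 and 51.4 for Med1-/- cells, against 76.25 and 106.65 for Med1+/+ cells. Signals below are quantile normalized intensities unless called deposited. In the deposited signals both Med1-/- arrays lay below both Med1+/+ arrays for 28 of the 46 genes and above them for 5, namely E2f1, Pold2, Pold1, Cdt1 and Mcm5, and the genotypes overlapped for 13. Tested as deposited, 1 gene was higher (Cdt1) and 23 were lower. After scaling to equal medians, 21 were higher and 18 lower, and the median change of the 46 genes was 0.11. Relative to all features that median was -0.31 after quantile normalization and between -0.20 and -0.19 in the deposited values and under both scalings by 1 factor per array (median or 75th percentile). Of the 17 called rises, 16 lost the call in the deposited values. The distance between any pair of genes on an array does not change when a whole array is multiplied by a factor.

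**Figure D2:**
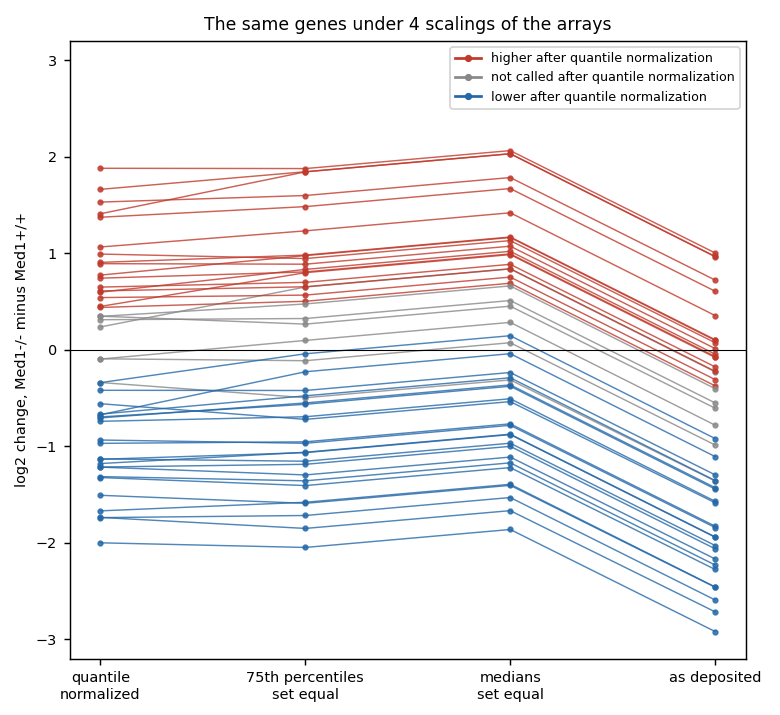
Log2 change of the 46 genes, Med1-/- minus Med1+/+, under 4 scalings of the arrays, 1 line per gene, coloured by its call after quantile normalization. The size of the shift differs between genes (with medians set equal Orc1 is at -0.31, against -0.34 after quantile normalization, and Pcna at -0.04, against -0.67), the genes called lower all stay below 0 in the deposited values, and of the genes called higher 1, Cdt1, keeps its call there.

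The origin recognition genes lay on 1 side. All 6 subunit genes of the origin recognition complex had lower values in Med1-/- cells, and 5 of them were called, beside 36.2% of all features called lower. Orc6 signal was 480.4 and 481.6 in Med1-/- cells, against 1564 and 1504 in Med1+/+ cells, a log2 change of -1.67 (SE 0.10; adjusted p = 3.7e-05). Orc5, which encodes an ATP-binding subunit, had 83.4 and 90.4 in Med1-/- cells, against 313.2 and 274.6 in Med1+/+ cells (log2 change -1.74, SE 0.15). The replicates of each genotype lay close together for both genes, and the groups did not overlap.

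Orc2, a core subunit of the complex, had 129.5 and 161.8 in Med1-/- cells, against 351.0 and 379.4 in Med1+/+ cells (log2 change -1.32, SE 0.15), and its other probe sets changed by -1.27 and -1.46. Orc4 changed by -0.97 (SE 0.11), and its other probe sets by -0.94 and -0.80. Orc3 changed by -0.56 (adjusted p = 0.023), the weakest call of the family. That call was lost without Med1-/- replicate 2 (adjusted p = 0.0807, limma), without Med1+/+ replicate 1 (0.088) and without Med1+/+ replicate 2 (0.107). Orc1, the subunit whose level rises and falls with the cell cycle in mammals, had the smallest difference, with 97.5 and 101.6 in Med1-/- cells and 129.8 and 123.1 in Med1+/+ cells (log2 change -0.34; adjusted p = 0.081). Orc1 passed after scaling by the 75th percentile (log2 change -0.50; adjusted p = 0.026, limma), in the deposited values (-1.36; adjusted p = 0.0064) and without the intensity trend of the fit (adjusted p = 0.040).

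The loading factor Cdt1 and its inhibitor geminin differed in opposite directions. Cdt1 signal was 7575 and 6621 in Med1-/- cells, against 2861 and 2489 in Med1+/+ cells, 2.65-fold higher (log2 change 1.41, SE 0.11; adjusted p = 7.5e-05). Gmnn, the geminin gene, had 300.6 and 277.6 in Med1-/- cells, against 1004 and 933.5 in Med1+/+ cells, 3.34-fold lower (log2 change -1.74, SE 0.11; adjusted p = 4.3e-05). Neither pair of groups overlapped, and a second bright Cdt1 probe set changed by 1.56. Under median scaling the Cdt1 change was 2.03, and in the deposited values it was 0.96. Cdc6, the other loading factor, was not called at 0.31 (adjusted p = 0.051), close to the threshold. It passed after scaling to equal medians (log2 change 0.51; adjusted p = 0.0068, limma) and by the 75th percentile (0.32; adjusted p = 0.042). It was at -0.55 in the deposited values (adjusted p = 0.34).

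Because both signals come from the same array, their ratio does not change when an array is multiplied by 1 factor. It does change under quantile normalization, which shifts bright and dim signals by different amounts. In the deposited signals log2 of Cdt1 over Gmnn was 5.05 and 4.88 in Med1-/- cells and 1.45 and 1.34 in Med1+/+ cells. The height of such a ratio depends on the probes, and only its difference between genotypes is read: it was 3.57 on the log2 scale, or 11.8-fold higher in Med1-/- cells. This pair and the 4 pairs named further on were chosen after their values were seen, so they are given without a test. With 2 arrays against 2, an exact two-sided permutation test of a single value cannot go below p = 0.333.

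**Figure D3:**
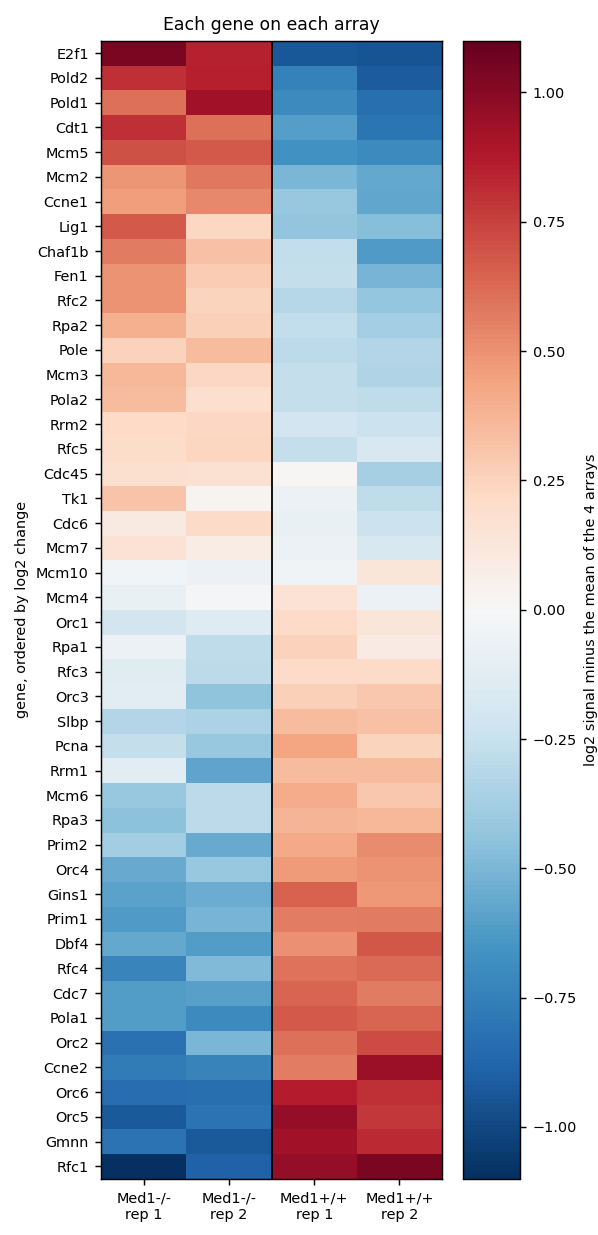
Log2 normalized signal of each of the 46 genes on each array (columns: Med1-/- replicates 1 and 2, then Med1+/+ replicates 1 and 2), shown as the deviation from the mean of that gene over the 4 arrays. Genes run from the largest rise (E2f1) to the largest fall (Rfc1). Both arrays of a genotype lie beyond both of the other for 44 genes, Mcm4 and Mcm10 being the exceptions. In Cdc45, Med1+/+ replicate 1 lies just above the mean of the 4 arrays, on the same side as the Med1-/- arrays.

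The 6 genes of the Mcm2-7 ring, whose products form a helicase with 1 copy of each subunit, differed in direction. Mcm5 signal was 1259 and 1234 in Med1-/- cells, against 486.5 and 474.6 in Med1+/+ cells (log2 change 1.37, SE 0.10; adjusted p = 5.5e-05). Mcm2 had 1721 and 1831 in Med1-/- cells, against 865.1 and 831.9 in Med1+/+ cells (log2 change 1.06, SE 0.10). Mcm3 had 2489 and 2259 in Med1-/- cells, against 1609 and 1529 in Med1+/+ cells (log2 change 0.60, SE 0.10). These 3 genes were higher, and all 5 Mcm3 probe sets rose, by up to 1.26.

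Mcm6 was the 1 subunit gene called lower (log2 change -0.71, SE 0.11, adjusted p = 0.00085, limma). It had 1020.4 and 1117 in Med1-/- cells, against 1815 and 1673 in Med1+/+ cells. Its other probe set changed by -0.82 and was not called when every probe set was fitted as its own feature (adjusted p = 0.052, limma). Under median scaling the Mcm6 change was -0.36 (adjusted p = 0.020, limma). Mcm4 had 1569.8 and 1650.4 in Med1-/- cells and 1864 and 1590.4 in Med1+/+ cells, so the groups overlapped (log2 change -0.10; adjusted p = 0.46). Mcm7 just missed the call on its brightest probe set (log2 change 0.24; adjusted p = 0.052). When every probe set was fitted as its own feature, its 3 other probe sets passed, with changes of 0.40, 0.50 and 0.63 (adjusted p = 0.028, 0.0059 and 0.010, limma). Under median scaling the Mcm7 change was 0.84 (adjusted p = 0.00063, limma). Within the arrays as deposited, log2 of Mcm5 over Mcm6 was 0.34 and 0.15 in Med1-/- cells and -1.82 and -1.76 in Med1+/+ cells, a difference of 2.04, or 4.11-fold.

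The promoters of several of these genes share words bound by E2F factors. The words were not used to choose the genes. Many of the genes are textbook E2F targets, however, so their share with a word is no independent finding. Windows from 250 bases before to 50 bases after the transcription start were available in the RefSeq table (GRCm38.p6) for 41 of the 49 genes. They were searched on both strands for the 4 words TTTCCCGC, TTTCGCGC, TTTGCCGC and TTTGGCGC, which can overlap one another. At least 1 word stood in the windows of 12 of the 41 genes, or 29.3%, beside 2.605% of all 27025 genes with a window and 5.19% of the 6440 tested features with one. Words were found in 5 of 15 genes called higher, 4 of 18 called lower and 3 of 6 not called, and no difference between these shares was tested. A match describes these letters and is no measured binding site.

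Stretches from 4 of these windows are shown because their genes carry words before the start and include a rise (Mcm5), falls (Mcm6 and Pola1) and a gene not called (Cdc6). Words on either strand are in capitals. The Mcm5 stretch lies at chr8:75109326-75109397 on the plus strand, the Mcm6 stretch at chr1:128359715-128359845 on the minus strand, the Pola1 stretch at chrX:93632256-93632323 on the minus strand and the Cdc6 stretch at chr11:98907983-98908050 on the plus strand, each read 5′ to 3′ toward the gene.
Mcm5: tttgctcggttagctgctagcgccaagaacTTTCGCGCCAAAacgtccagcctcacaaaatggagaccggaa
Mcm6: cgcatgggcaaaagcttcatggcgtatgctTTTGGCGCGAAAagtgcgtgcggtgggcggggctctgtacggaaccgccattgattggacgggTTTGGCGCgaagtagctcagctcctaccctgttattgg
Pola1: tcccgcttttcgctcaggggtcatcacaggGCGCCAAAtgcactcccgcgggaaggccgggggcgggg
Cdc6: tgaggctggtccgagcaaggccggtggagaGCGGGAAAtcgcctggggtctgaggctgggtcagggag
In Mcm5 and in the upstream part of Mcm6, a pair of words on opposite strands overlaps to form 1 run of capitals, beginning 153 bases before the start of Mcm5 and 110 bases before that of Mcm6. Mcm6 has a further word beginning 47 bases before its start. The run of Mcm6 is the reverse complement of that of Mcm5, beside changes of 1.37 and -0.71. The single words of Pola1 and Cdc6 both begin 138 bases before the start.

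Of the genes grouped here under origin firing (Cdc7, Dbf4, Gins1, Mcm10 and Cdc45), 3 of 5 tested were lower and none was called higher. The shares of all features were 36.2% lower and 39.1% higher. Some genes of this step were placed in other groups, and these differed in direction. Ccne1 (log2 change 0.99) and Recql4 (1.45) were called higher, and Ccne2 (-1.51) and Topbp1 (-1.83) were called lower. Cdc7 and Dbf4, the kinase and its activating subunit, fell together. Dbf4 had 737.9 and 709.9 in Med1-/- cells, against 1541 and 1747 in Med1+/+ cells (log2 change -1.18, SE 0.11). Cdc7 had 149.0 and 150.4 in Med1-/- cells, against 358.6 and 341.7 in Med1+/+ cells (log2 change -1.22, SE 0.12), although its dimmer second probe set changed by -0.15 only. Gins1, a subunit of the GINS complex, had 233.6 and 240.8 in Med1-/- cells, against 554.0 and 490.8 in Med1+/+ cells (log2 change -1.13, SE 0.12). The Mcm10 difference was -0.09 (adjusted p = 0.50) and that of Cdc45, the helicase partner, 0.35 (adjusted p = 0.084).

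The 5 genes of replication factor C, the ring that opens and loads the clamp, were all called, 3 lower and 2 higher. Among all features, 36.2% were called lower and 39.1% higher. Rfc1, the large subunit, had the largest fall of all 46 genes, with 161.4 and 189.1 in Med1-/- cells, against 688.0 and 720.3 in Med1+/+ cells (log2 change -2.0, SE 0.13; adjusted p = 4.2e-05). Its other probe sets fell by 1.70 and 1.53. Rfc4, a small subunit, had 301.1 and 357.3 in Med1-/- cells, against 757.0 and 770.7 in Med1+/+ cells (log2 change -1.22, SE 0.12). On the other side, the small subunit gene Rfc2 had 902.3 and 756.1 in Med1-/- cells, against 512.9 and 475.0 in Med1+/+ cells (log2 change 0.74, SE 0.13).

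Rfc5 (log2 change 0.44, SE 0.10) and Rfc3 (-0.42, SE 0.12), also small subunits, had the smallest calls. Rfc3 was not called without Med1-/- replicate 2 (adjusted p = 0.0658, limma), without Med1+/+ replicate 1 (0.0628) or without Med1+/+ replicate 2 (0.0678), nor after scaling to equal medians (log2 change -0.24; adjusted p = 0.095). Rfc5 was not called without Med1+/+ replicate 1 (0.0528). In deposited signals, log2 of Rfc2 over Rfc1 was 2.61 and 2.13 in Med1-/- cells and -0.40 and -0.59 in Med1+/+ cells, a difference of 2.87, or 7.30-fold. Pcna, the clamp itself, had 4980.0 and 4476 in Med1-/- cells, against 8035 and 7061 in Med1+/+ cells (log2 change -0.67, SE 0.11; adjusted p = 0.0011). The size of the Pcna fall depended on the scaling, at -0.04 when arrays were scaled to equal medians (adjusted p = 0.82, limma) and -0.23 when scaled by the 75th percentile (adjusted p = 0.24).

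Genes of the priming complex and of the elongating polymerases differed in direction. Pola1, the catalytic subunit of polymerase alpha, had 211.8 and 200.04 in Med1-/- cells, against 521.0 and 507.9 in Med1+/+ cells (log2 change -1.31, SE 0.11). Prim1, the catalytic primase subunit, had 477.8 and 518.7 in Med1-/- cells, against 1093 and 1098 in Med1+/+ cells (log2 change -1.14, SE 0.10), and the regulatory subunit gene Prim2 changed by -0.94 (SE 0.12). These 3 genes of the priming complex were lower, and the accessory subunit gene Pola2 was higher (log2 change 0.54, SE 0.12).

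Pold2, the accessory subunit of polymerase delta, had 1979 and 2043 in Med1-/- cells, against 674.6 and 596.8 in Med1+/+ cells (log2 change 1.66, SE 0.11; adjusted p = 4.3e-05). Pold1, its catalytic subunit, had 828.0 and 1029 in Med1-/- cells, against 334.3 and 304.1 in Med1+/+ cells (log2 change 1.53, SE 0.14), and a second probe set changed by 1.69. Pole, the catalytic subunit of polymerase epsilon, changed by 0.61 (SE 0.11). Pold1, Pold2 and Pole were thus higher on both Med1-/- arrays. Other subunit genes of polymerases delta and epsilon differed in direction. Pold4 was called higher (log2 change 0.66), Pole2 (-0.76) and Pole3 (-0.67) were called lower, and Pold3 (-0.19) and Pole4 (-0.13) were not called. In deposited signals, log2 of Pold2 over Pola1 was 3.41 and 3.60 in Med1-/- cells and 0.35 and 0.24 in Med1+/+ cells, a difference of 3.21, or 9.27-fold. Pola1 was the 1 gene of the 46 on the X chromosome, and Xist, the RNA of the inactive X, had 364.1 and 200.9 in Med1-/- cells, against 6771 and 5839 in Med1+/+ cells. The part of X dosage in the Pola1 value was not tested. The Xist difference (log2 change -4.53) ran with genotype on all 4 arrays. Sex or X status of the cells is therefore confounded with genotype for all 46 genes and cannot be told apart from it. Its part in their changes was not tested.

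The strand maturation genes Fen1 and Lig1 were higher, and the genes of the single-strand binding complex were divided. Fen1, the flap nuclease that trims Okazaki fragments, had 2060 and 1776 in Med1-/- cells, against 1219 and 1027 in Med1+/+ cells (log2 change 0.77, SE 0.13). Lig1, the ligase that seals them, had 1098 and 801.3 in Med1-/- cells, against 505.6 and 495.0 in Med1+/+ cells (log2 change 0.90, SE 0.16). The Med1-/- arrays differed more from each other for Lig1 than for Fen1, but the groups did not overlap in either. Of the 3 subunits of replication protein A, which coats unwound DNA, Rpa2 was higher, with 671.2 and 615.1 in Med1-/- cells, against 424.3 and 394.9 in Med1+/+ cells (log2 change 0.65, SE 0.11). A dimmer Rpa2 probe set changed by 0.49 and was not called in the fit of every probe set (adjusted p = 0.12, limma). Rpa3 was lower (log2 change -0.74, SE 0.11). Rpa1 was called lower (log2 change -0.34; adjusted p = 0.030), and the call was lost without Med1-/- replicate 2 (adjusted p = 0.168, limma) and without Med1+/+ replicate 1 (0.163). The Rpa1 difference turned to 0.14 with medians set equal.

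Of the nucleotide supply genes, the subunits of ribonucleotide reductase, the enzyme that makes deoxynucleotides, went opposite ways. Rrm2, the small subunit whose abundance follows S phase, had 3754 and 3776 in Med1-/- cells, against 2779 and 2739 in Med1+/+ cells (log2 change 0.45, SE 0.09; adjusted p = 0.0030). Another Rrm2 probe set rose by 1.13. Rrm1, the large subunit, had 1108 and 803.6 in Med1-/- cells, against 1528 and 1532 in Med1+/+ cells (log2 change -0.70, SE 0.16), and was not called with medians set equal (log2 change -0.38; adjusted p = 0.057, limma). A dimmer Rrm1 probe set changed by -0.40 and was not called in the fit of every probe set (adjusted p = 0.058, limma). Tk1, the salvage kinase for thymidine, was not called at 0.35 (adjusted p = 0.053, limma). It passed after scaling to equal medians (log2 change 0.66; adjusted p = 0.0028, limma), without Med1-/- replicate 2 (0.48; adjusted p = 0.022) and without Med1+/+ replicate 1 (0.45; adjusted p = 0.048). Cdc45 also passed without Med1+/+ replicate 1 (0.53; adjusted p = 0.035, limma) and after scaling to equal medians (0.45; adjusted p = 0.035).

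Among regulators of S phase entry, E2f1 had the largest rise of all 46 genes. E2f1, which encodes an activating E2F factor, had 769.6 and 673.2 in Med1-/- cells, against 195.6 and 193.4 in Med1+/+ cells, 3.68-fold higher (log2 change 1.88, SE 0.12; adjusted p = 4.3e-05). A dimmer E2f1 probe set rose by 1.05, so the size of the rise depended on the probe set. The cyclin E genes, whose products activate Cdk2, were divided. Ccne1 had 312.4 and 328.2 in Med1-/- cells, against 169.3 and 151.8 in Med1+/+ cells (log2 change 0.99, SE 0.13). Ccne2 had 129.6 and 133.0 in Med1-/- cells, against 329.9 and 429.9 in Med1+/+ cells (log2 change -1.51, SE 0.16). In deposited signals, log2 of Ccne1 over Ccne2 was 1.35 and 1.40 in Med1-/- cells and -0.92 and -1.45 in Med1+/+ cells, a difference of 2.56, or 5.88-fold.

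Chromatin genes were split as well. Chaf1b, a subunit of the histone chaperone that works behind the fork, had 472.4 and 397.7 in Med1-/- cells, against 262.9 and 206.4 in Med1+/+ cells (log2 change 0.89, SE 0.16). Slbp, which binds the stem-loop of histone mRNAs, had 1208 and 1186 in Med1-/- cells, against 1916 and 1887 in Med1+/+ cells (log2 change -0.67, SE 0.09). The replicate arrays were closer for Slbp than for Chaf1b, and neither pair of groups overlapped.

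Genes with more than 1 probe set past the filter gave the same direction on each of these. Of the 86 probe sets, 77 passed the filter, and 22 genes had several of these. In all 22 the probe sets shared their direction of change, and none had calls both ways when every probe set was fitted as its own feature. Within a gene the probe sets differed by a median of 0.18 on the log2 scale and by up to 1.07, in Cdc7. In that fit Orc3 and Rpa1 lost their calls (adjusted p = 0.0565 and 0.0607, limma).

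**Figure D4:**
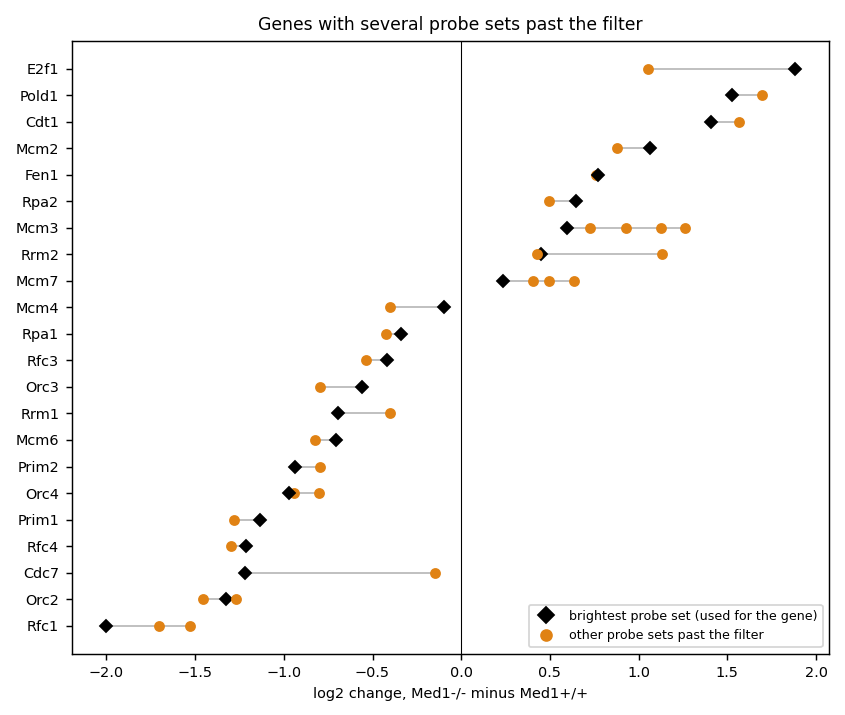
Log2 change, Med1-/- minus Med1+/+, of every probe set past the filter for the 22 replication genes that have several, 1 row per gene. Black diamonds mark the brightest probe set, used for the gene, and orange points the others: within each row all points lie on the same side of 0, most widely spread in Cdc7, E2f1, Rrm2 and Mcm3.

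Genes of the same pathway outside the 49 moved in both directions too. Of 28 further replication factors, 19 were tested, and 6 were higher and 10 lower. Among them Topbp1, which helps to activate Cdc45 loading, changed by -1.83, the mitochondrial single-strand binding gene Ssbp1 by -1.32, and Wdhd1, which ties polymerase alpha to the helicase, by -1.16. Recql4, a helicase of initiation, changed by 1.45, the alternative clamp loader gene Chtf18 by 1.33 and the RNase H2 subunit gene Rnaseh2c by 1.15. Of 14 further nucleotide and histone supply genes, 13 were tested, with 6 higher, including the nucleotide pyrophosphatase gene Dctpp1 (log2 change 1.29) and the histone chaperone gene Asf1b (1.06), and 6 lower, including the histone acetyltransferase gene Hat1 (-1.21) and the histone chaperone gene Nasp (-1.02).

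Of 28 genes that control the step into S phase, 24 were tested, with 7 higher, 7 lower and 10 not called. Cdkn1a, the p21 inhibitor of cyclin-dependent kinases, which also binds Pcna, changed by 2.58, the repressor E2f8 by 1.48, the Cdk4 inhibitor gene Cdkn2c by 1.43 and the cyclin gene Ccnd3 by 1.33. Rbl1 (-1.46) and Rbl2 (-1.37), relatives of the retinoblastoma gene, and the cyclin genes Ccnd2 (-0.89) and Ccnd1 (-0.81) were lower. Of 20 mitosis genes, 19 were tested, with 5 higher and 8 lower. Kif11 (-1.88), a spindle motor gene, was lower beside the kinetochore gene Cenpf (-1.92), and Cdc20 (1.41), an activator of the anaphase-promoting complex, was higher beside the mitotic kinase gene Plk1 (1.85). These counts were read beside the 39.1% and 36.2% of all features called in each direction, and no difference between the lists was tested.

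Gene length moved with the changes, in these genes and on the whole array. Across the 46 genes the log2 change had a Spearman correlation of -0.31 with the length of the gene in the genome, beside -0.26 across 7869 features with a length. Genes of 1 comparison share arrays and normalization and are not independent replicates, so the values are descriptions. The median length was 15.3 kb for the replication genes called higher and 23.7 kb for those called lower, beside 15.3 kb and 31.3 kb for all features. The longest were Pola1 and Prim2, both lower, but Orc6 and Gmnn were short and among the largest falls. The part of gene length in any of these changes was not tested.

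**Figure D5:**
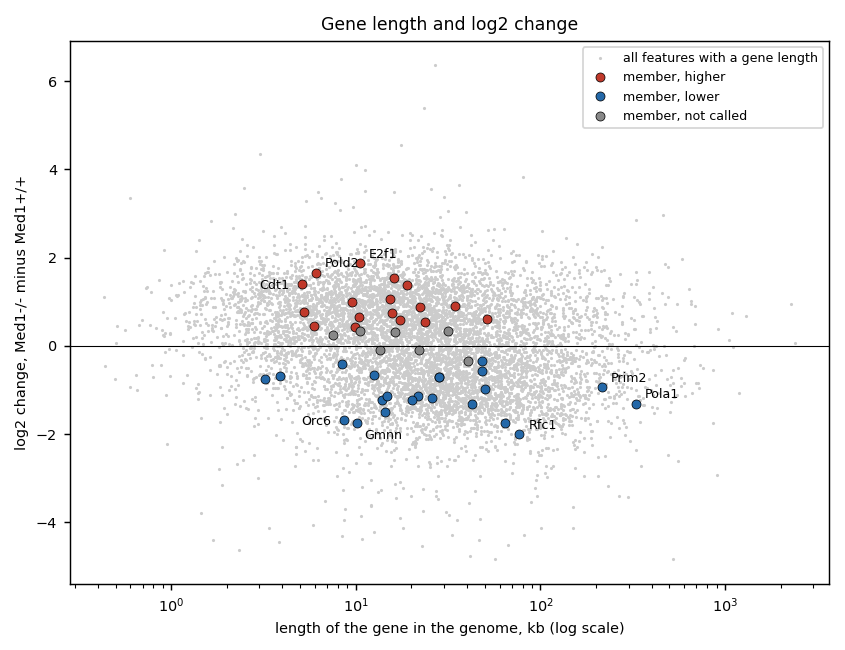
Log2 change, Med1-/- minus Med1+/+, against the length of the gene in the genome (kb, log scale) for all features with a length in grey and the 46 replication genes in colour by call. Among the coloured points the longest genes, Pola1 and Prim2, lie below 0 and short genes lie on both sides, with E2f1, Pold2 and Cdt1 above and Orc6 and Gmnn below.

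Med1 itself was lower in the cells labelled Med1-/-, with 47.1 and 53.0 against 630.5 and 590.8 in Med1+/+ cells on its brightest probe set (log2 change -3.57). Fibroblast and mesenchyme markers were present in both genotypes, with 11 of 12 tested, 5 higher and 4 lower, and a summed signal of 45975 and 43869 in Med1-/- cells and 44087 and 41278 in Med1+/+ cells. That sum is dominated by the bright Vim and collagen probe sets, and single markers differed widely: Pdgfra (log2 change -2.95), Prrx1 (-2.89), S100a4 (-2.68) and Dcn (-1.99) were lower, and Col1a1 (1.98), Thy1 (1.34), Twist1 (1.23), Col3a1 (1.11) and Col1a2 (0.28) were higher. Smooth muscle markers were higher in all 6 tested of 7, with a median log2 change of 3.09 and the largest in Actg2 (5.39), summing to 31642 and 29825 in Med1-/- cells and 14117 and 13724 in Med1+/+ cells. Epithelial markers were lower in 4 and higher in 1 of 5 tested among 8, with a median log2 change of -3.92, summing to 2319 and 2699 in Med1-/- cells and 4706 and 4851 in Med1+/+ cells. Cdh1 (-4.50), Krt18 (-4.45), Dsp (-3.92) and Krt8 (-1.96) were the lower ones. Krt19 was higher, at 2041 and 2460.3 in Med1-/- cells against 741.0 and 725.3 in Med1+/+ cells, and made up most of the sum in Med1-/- cells. For blood cells all 5 markers on the array, and for endothelium 5 of 6, lay below the filter, and in none of these lists was a marker listed at 0. The ratio of 3′ to 5′ control signal was 1.28 and 1.22 for actin in Med1-/- cells and 1.52 and 1.38 in Med1+/+ cells, and 1.11 and 1.0 for Gapdh in Med1-/- cells and 0.947 and 0.900 in Med1+/+ cells. The part of other cell types or RNA quality in the replication genes was not tested.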

How the data were processed

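Total RNA was labelled with biotin by a 3′ in vitro transcription kit and hybridised to 4 arrays, per the labels' protocols. The authors deposited, for each probe set, a linear intensity on every array. Their probe summary, background correction and scaling are not given in the sources used here. Beside 22626 probe sets used, 64 controls were left out. Platform annotation gave 20380 probe sets 1 gene symbol, 691 several and 1555 none. Intensities were quantile normalized, and log2(intensity + 1.7) was tested, so changes of dim genes are understated. Each gene was represented by its brightest probe set, and the 9050 probe sets below the 40th percentile of mean log2 signal were left out, which left 8923 features. Genotypes were compared with lmFit and a trended eBayes of limma 3.58.1 (R 4.3.3) and Benjamini-Hochberg adjustment over all features at 0.05. Residual degrees of freedom were 2 and prior ones 4.71, and the number of arrays limits the precision. The fit was also run on simulated data with independent noise on each array and far fewer changed genes than were called here. Those data lacked the unequal array scales, so they do not test the normalization under these conditions. Summaries and figures used Python 3.11.15 and matplotlib 3.10.9.

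The members and the other gene lists were chosen with earlier results of these data known. Full statistics were given for up to 12 genes called higher and 12 called lower with the largest change, and up to 4 genes per direction were named from each other list. Cell type markers and other subunit genes of polymerases delta and epsilon were named beyond that limit, the latter after their values were seen. Genes above these limits were given by their change, with array values for a few; those of Mcm3, Mcm4, Mcm6, Orc1, Pcna, Rrm1, Rrm2 and Slbp were added after their values were seen. Alternatives were the filter, the pseudocount, the scaling, the choice of probe set, the trend, a replicate block and leaving out each array. Some items are not reported here.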

Additional observations from a re-analysis of the deposited data

How the results depend on the processing

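No gene was called in opposite directions under any alternative tried. At least 2-fold, 1890 features were higher and 1715 lower, and 6 and 12 of the 46 genes. As deposited, 265 features and 1 of the genes were higher. Leaving out 1 array gave 3040 to 3375 features higher and 2757 to 3093 lower, and 17 to 18 of the genes higher and 19 to 22 lower. The median change of the 46 genes (-0.22) was -0.34 without the filter, 0.11 with medians set equal, -0.078 with 75th percentiles set equal, -0.95 as deposited, -0.20 and -0.17 with pseudocounts of 16 and 50, -0.30 with probe sets averaged and -0.48 without _s_at, _x_at and _a_at probe sets, and -0.29 to -0.18 with 1 array left out. Relative to all features (-0.31), the same settings gave -0.45, -0.19, -0.19, -0.20, -0.28, -0.23, -0.40 and -0.55, a stricter filter -0.29, and leaving out 1 array -0.36 to -0.28. As deposited, the sign turned for Cdc6 (-0.55), Mcm3 (-0.046), Mcm7 (-0.23), Cdc45 (-0.61), Rfc2 (-0.071), Rfc5 (-0.37), Pola2 (-0.31), Pole (-0.22), Rpa2 (-0.18), Rrm2 (-0.080) and Tk1 (-0.40). With medians set equal it turned for Mcm4 (0.28), Mcm10 (0.072) and Rpa1 (0.14), and for Mcm4 also with 75th percentiles set equal (0.096) and with 1 array left out (-0.21 to 0.017, above 0 only without Med1+/+ replicate 1). The causes were not tested.

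With a replicate block, 3825 features were higher and 3500 lower, and 21 and 22 of the genes; Mcm7, Cdc6, Tk1 and Cdc45 gained a call. Same-numbered arrays deviated together with a correlation of 0.27, but with 2 pairs the arrays share only a number. The within-array ratios and the fit of every probe set were chosen after seeing the data.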
